A study of Mus musculus with 4 samples.

Results

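The Notch pathway was described from 38 genes, taken by gene name from the 29676 gene names on the array and read by 54 probes on 63 spots. The list holds 4 receptors, 6 ligands, 4 glycosylation enzymes, 6 genes of proteolytic processing, 7 trafficking and ubiquitin regulators, 4 genes of the nuclear complex and 7 transcriptional targets. The members were chosen by gene name, with their measured changes between untreated and OGD arrays in the present comparison known, so the members' values are a description without a test of their own. Gene expression was measured in mouse astrocyte-enriched cultures (AECs), either untreated (n = 2) or exposed to oxygen–glucose deprivation (OGD) for 15 h (n = 2). AECs in every group were mixed glial cultures from the cortices of newborn ICR mice, without regard to sex, and had been given PLX3397, which blocks a receptor that microglia need to survive, to deplete these cells. OGD combined glucose-free medium with hypoxia, and oligodendrocyte lineage cells remained in the cultures. RNA of each sample was labeled with Cy3 and hybridized to its own array, all 4 on 1 slide read in 1 scan, with the untreated samples at positions 1 and 2 and the OGD samples at positions 3 and 4, so that position on the slide and treatment cannot be told apart. The labels call the samples of a group different samples, the methods describe wells seeded from independent cultures of different pups, and the number of arrays limits the precision.

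Notch signaling passes between neighboring cells. A ligand of the Delta or Jagged type on 1 cell pulls on a Notch receptor of the next, an ADAM protease and then the γ-secretase complex cut the receptor, and its intracellular domain enters the nucleus, where it joins the DNA-binding protein RBPJ and a Mastermind coactivator and switches on target genes such as those of the *Hes* and *Hey* families. In the developing cortex, Notch signaling keeps progenitors undifferentiated and favors an astroglial fate, and sugars that Fringe enzymes add to the receptor set which ligands it answers to.

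Sequences are shown for the genes on which the description below turns, chosen after their values were seen. The first set are the 250 bases before the annotated start of *Lfng*, *Nrarp* and *Hes5*, genes under Notch control whose signals were lower after OGD, from RefSeq on GRCm38.p6. They lie on the plus strand at chr5:140607091-140607340, chr2:25180508-25180757 and chr4:154960673-154960922, respectively. Capitals mark TGGGAA (or TTCCCA on the other strand), the core of the site bound by RBPJ, and CACGTG, an E-box, which contains ACGTG, the core of the hypoxia response element. In *Lfng* the E-box runs into TGGGAA, sharing its TG, and is printed as 1 run of capitals.
Lfng: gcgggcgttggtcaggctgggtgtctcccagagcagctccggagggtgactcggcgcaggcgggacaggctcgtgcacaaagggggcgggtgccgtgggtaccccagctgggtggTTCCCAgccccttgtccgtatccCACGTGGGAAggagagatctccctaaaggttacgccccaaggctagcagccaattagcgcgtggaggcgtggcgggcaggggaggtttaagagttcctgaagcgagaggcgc
Nrarp: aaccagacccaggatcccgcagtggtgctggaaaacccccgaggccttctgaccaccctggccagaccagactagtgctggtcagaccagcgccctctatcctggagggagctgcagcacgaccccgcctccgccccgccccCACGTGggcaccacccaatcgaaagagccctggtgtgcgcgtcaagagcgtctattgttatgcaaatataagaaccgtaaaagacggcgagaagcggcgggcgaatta
Hes5: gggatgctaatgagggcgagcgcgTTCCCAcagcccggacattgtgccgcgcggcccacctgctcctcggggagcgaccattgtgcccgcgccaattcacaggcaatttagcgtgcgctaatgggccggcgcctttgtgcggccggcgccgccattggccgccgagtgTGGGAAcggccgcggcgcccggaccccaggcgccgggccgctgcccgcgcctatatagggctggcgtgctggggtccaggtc

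The windows of *Lfng* and *Nrarp* held CACGTG at 112 and 108 bases before the start, and those of *Lfng* and *Hes5* held the RBPJ core on both strands, at 135 and 108 bases in *Lfng* and at 226 and 82 bases in *Hes5*. A promoter entry was found for 31 of the 38 members. TGGGAA occurred on either strand in 9 of these 31, beside 24.1% of 27025 genes with an entry (21.6% of 32851 windows). ACGTG occurred in 10 of 31 beside 18.5% of genes (16.6% of windows), and CACGTG in 4 of 31 beside 6.86% of genes (6.02% of windows). TGGGAA was in *Hey2*, *Psenen* and *Rbpj*, called higher below, in *Hes5*, *Lfng*, *Maml3* and *Psen2*, called lower, and in *Dtx2* and *Maml2*, not called. ACGTG was in *Dlk1*, *Ncstn*, *Numb* and *Rbpj*, called higher, in *Lfng*, *Notch3*, *Nrarp* and *Psen2*, called lower, and in *Adam10* and *Maml1*, not called. The windows of *Hes6*, called lower, held none of these letters. These matches are a description of the letters, and binding was not measured. The second set are the array probes of *Notch1* and *Rbpj* that lie upstream in the gene and whose value differed from that of the downstream probe of the same gene. They are placed on mm9 at chr2:26319440-26319499 (minus strand) and chr5:54044777-54044836 (plus strand), and the array's headers do not say which exon they fall in.
Notch1: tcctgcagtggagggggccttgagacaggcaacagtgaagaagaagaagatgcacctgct
Rbpj: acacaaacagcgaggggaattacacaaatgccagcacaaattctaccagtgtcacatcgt

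The arrays recorded 43020 non-control spots each, of which 64.5 to 73.7% were well above background and none saturated. The 75th percentile of the signal, by which each array was divided, was 1.37 lower on the log2 scale after OGD, while 9 spiked-in control probes differed by −0.0849. A fold change below is therefore relative to the array's own 75th percentile unless spike-in scaling is named, and on the spike-in scale the median of all genes was at a log2 fold change of −1.13 instead of 0.16. All 10 astrocyte markers (*Gfap*, *Aqp4*, *Slc1a2* and others) were well above background on every array. Their summed level, relative to the 75th percentile, was 168 and 149 in untreated and 228 and 233 in OGD cultures. In the limma comparison below, 6 were called higher and 1, *Sox9* (log2 fold change −1.52), lower, beside 37.1% and 27.8% of all genes. The brightest, *Aldoc* (0.70), was not called, and *Aldh1l1* was at 0.44 but its other probe at −2.50. The log2 fold change of all 10 was negative with spike-in scaling.

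Of the 38 genes, 37 had a probe whose signal exceeded background in both replicates of either group, and each is represented by its brightest such probe. With limma and Benjamini–Hochberg adjustment over all probes, 13 of the 37 were called higher and 16 lower after OGD at an adjusted p of 0.05, and 8 were not called. Over all 21064 genes tested, 37.1% were called higher and 27.8% lower. Beyond a 2-fold change, 4 members were higher (*Notch1*, *Jag2*, *Dlk1* and *Numb*) and 11 lower by their fitted values, where 12.7% and 15.0% of all genes were. Of these 11, *Heyl* is bounded only at 1.35-fold, because it was not well above background after OGD. Beyond a 10-fold change there was *Lfng* alone, lower, where 0.707% of all genes were higher and 0.560% lower. The median log2 fold change was −0.22 over the 37 members and 0.16 over all genes, and 24 members lay below the median of all genes. With spike-in scaling, 4 members had a positive and 33 a negative log2 fold change, and of the 13 higher calls those of *Notch1* and *Dlk1* remained. Without untreated replicate 1, 6 of the 13 higher and 14 of the 16 lower calls remained, and the same was found without untreated replicate 2. The calls lost were those of *Adam17*, *Dtx3*, *Hey1*, *Hey2*, *Mfng*, *Mib1* and *Rbpj*, higher, and *Hes5* and *Heyl*, lower, and that of *Mfng* was also lost without OGD replicate 2. With 1 untreated array left, the spread comes from the OGD pair alone, and the lone array is assumed to vary alike. The log2 fold changes behind the lost calls kept their direction, at 0.39 to 0.79 for the genes called higher and −1.42 to −1.55 for those called lower. In these bulk samples, fewer cells of a type and less RNA per cell cannot be told apart.

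**Figure D1:**
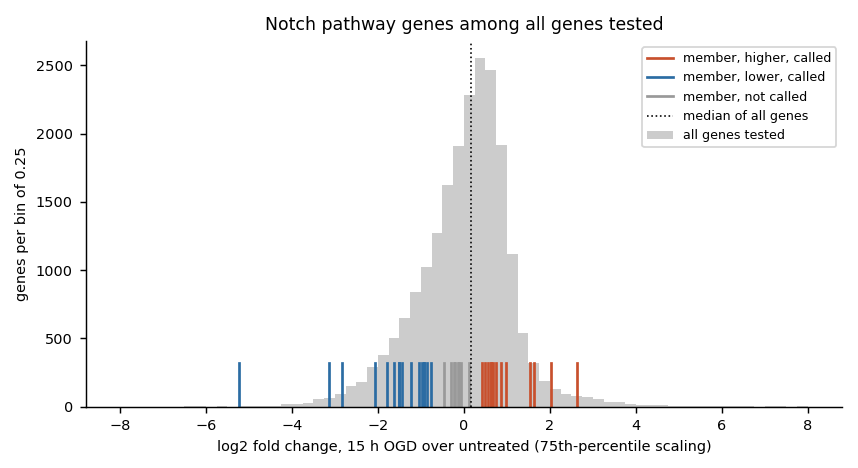
Histogram of the log2 fold change of 15 h OGD over untreated AECs for 21064 genes (gray bars, genes per bin of 0.25), with a tick for each of 37 Notch pathway genes colored by its call. The ticks run from −5.23 for *Lfng* to 2.63 for *Dlk1*, and the dotted line marks the median of all genes at 0.16.

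**Figure D2:**
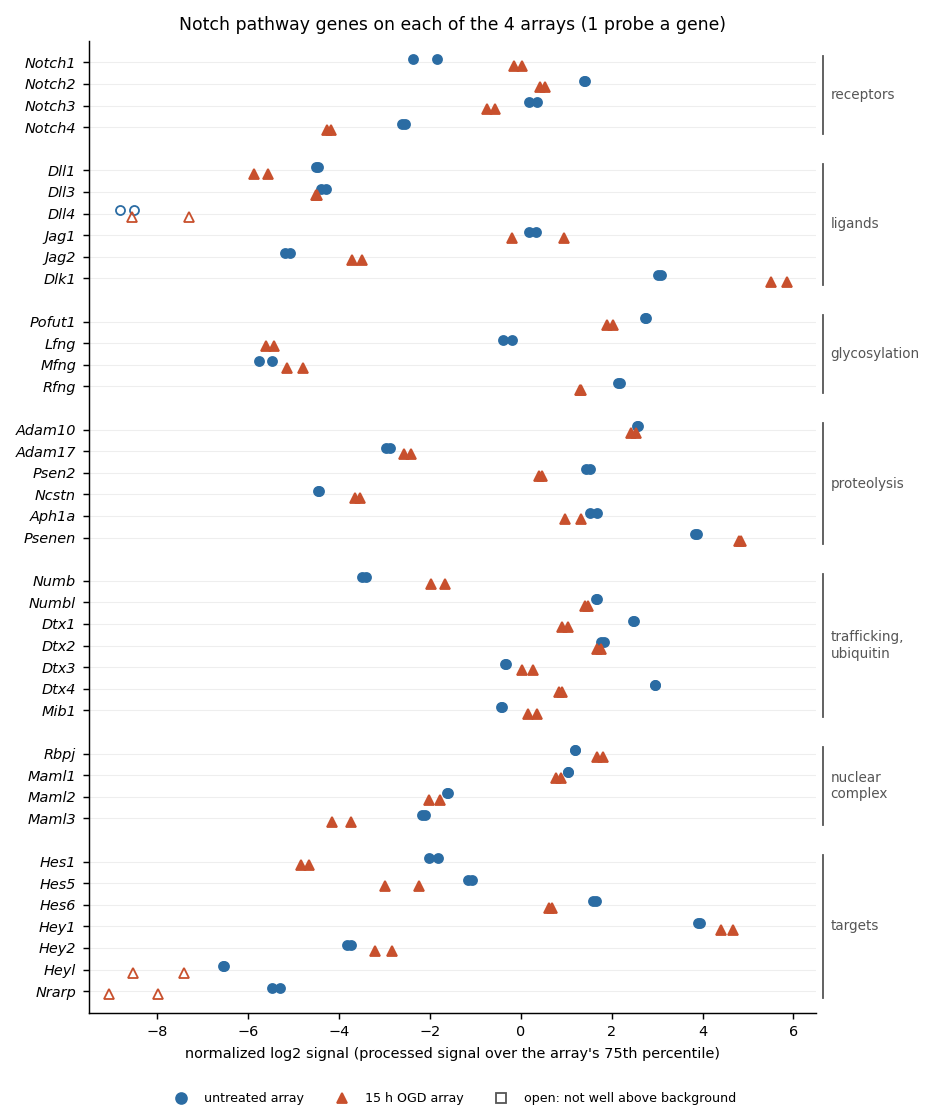
Normalized log2 signal of each Notch pathway gene on the 4 arrays, by role, with circles for untreated and triangles for OGD arrays. Open symbols, at *Dll4*, *Heyl* and *Nrarp*, were not well above background, and of the filled genes the groups overlapped at *Jag1*.

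Among the receptors, the signal at the probe of *Notch1* was higher and that of the other family members lower after OGD. NOTCH1 is a main receptor of neural progenitors. The normalized log2 signal of its brighter probe was −1.83 and −2.36 in untreated and 0.02 and −0.15 in OGD cultures, a log2 fold change of 2.03 (SE 0.213, 4.1-fold). The groups did not overlap, and the change stayed positive with spike-in scaling (0.75). The dimmer probe, which lies 4810 bases downstream, was at −5.89 and −6.04 in untreated cultures and not well above background in either OGD culture, which makes it at least 1.99-fold lower. Its direction turned with normexp background correction, to a log2 fold change of 0.74. The mean over both probes of *Notch1* was 0.44 higher on the log2 scale and was not called.

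*Notch2*, a close relative of *Notch1*, was at 1.40 and 1.42 in untreated and 0.54 and 0.42 in OGD cultures on the normalized log2 scale (log2 fold change −0.94, SE 0.0853). *Notch3*, a receptor best known from the mural cells of vessels, was at 0.18 and 0.36 against −0.75 and −0.57 (−0.94, SE 0.118). *Notch4*, known mainly from endothelium, was at −2.62 and −2.54 against −4.25 and −4.16 (−1.62, SE 0.0871, 3.08-fold lower). For all of these the OGD arrays lay below the untreated arrays. With normexp background correction the log2 fold change of *Notch4* was −0.62.

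Vessel cell markers are given beside *Notch3* and *Notch4*. Of 6 endothelial markers, 3 exceeded background on every array, and *Cldn5*, *Tek* and *Emcn* on none. Their summed level was 1.67 and 1.75 in untreated and 1.41 and 1.29 in OGD cultures, almost wholly the brighter probe of *Kdr* (log2 fold change −0.40). The other probe of *Kdr* was at 1.11, and *Cdh5* (0.27) and *Pecam1* (−0.01) were not called, so that the sum does not stand for the list. Of 6 mural markers, 3 exceeded background on every array, and *Kcnj8* and *Abcc9* on none. Their summed level was 74.6 and 66.8 in untreated and 134 and 127 in OGD cultures, and this sum is almost wholly the signal of *Acta2*, so that it does not stand for the list. With spike-in scaling the log2 fold change of all 3 was negative. On the 75th-percentile scale 2 of these rose, *Acta2* (log2 fold change 0.91) and *Rgs5* (0.38), and *Pdgfrb*, the receptor that marks pericytes, fell by 2.42 (SE 0.0865, limma adjusted p = 0.000752). The part of these cells in the values of *Notch3* and *Notch4* was not tested.

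The ligands moved in both directions. *Dlk1*, a noncanonical ligand that lacks the receptor-activating domain of Delta proteins and is often described as an inhibitor of Notch, had the highest log2 fold change among the members' brightest probes. Its normalized log2 signal was 3.02 and 3.08 in untreated and 5.51 and 5.86 in OGD cultures, a log2 fold change of 2.63 (SE 0.148, 6.21-fold), and its other probe gave 2.86 (SE 0.0807). *Jag2*, a ligand of the Jagged type, was at −5.19 and −5.08 against −3.71 and −3.50 (1.53, SE 0.112, 2.88-fold). For both genes the OGD arrays lay above the untreated ones, and spike-in scaling kept the sign (1.35 for *Dlk1* and 0.24 for *Jag2*), but the call of *Jag2* was lost.

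*Dll1*, a Delta ligand of neural progenitors, was at −4.49 and −4.45 in untreated and −5.87 and −5.55 in OGD cultures on the normalized log2 scale, a log2 fold change of −1.24 (SE 0.137) that turned to 0.25 with normexp background correction. *Dll3*, a Delta protein that acts within the cell and does not activate Notch, was at −4.38 and −4.28 against −4.49 and −4.47 (−0.15, SE 0.0825), and was not called, nor was its other probe, at 0.30 (SE 0.142). *Jag1*, a Jagged ligand known from astrocytes, was at 0.19 and 0.34 in untreated cultures, and the OGD cultures stood on either side of these, at 0.95 and −0.18. Its log2 fold change of 0.12 (SE 0.417) was thus smaller than the spread of the OGD replicates, and was −0.45 without OGD replicate 1, 0.68 without OGD replicate 2 and −1.17 with spike-in scaling. *Dll4*, the Delta ligand of sprouting vessels, was not well above background on any array, with processed signals of 2.36 to 5.87.

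The log2 fold change farthest from 0 among the members was that of an enzyme that puts sugars on the receptor. *Lfng*, the Fringe glycosyltransferase that extends O-fucose on Notch and favors signaling by Delta ligands, had processed signals of 1644 and 1904 in untreated and 20.7 and 16 in OGD cultures. On the normalized log2 scale these were −0.38 and −0.18 against −5.42 and −5.60, a log2 fold change of −5.23 (SE 0.12, 37.5-fold lower). All of these spots were well above background, and the decrease was −6.52 with spike-in scaling and −3.46 with normexp background correction. The other Fringe enzymes did not share the size of this change. *Rfng* was at 2.14 and 2.18 against 1.32 and 1.30 (−0.85, SE 0.0755), and its other probe, at −0.33 (SE 0.162), was not called. *Mfng* was at −5.46 and −5.75 against −5.14 and −4.78, a log2 fold change of 0.64 (SE 0.182) that was −0.64 with spike-in scaling.

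*Pofut1*, which adds the fucose that Fringe enzymes extend, was read by probes that lie 8823 bases apart and gave opposite signs. Its brighter probe was at 2.73 and 2.76 in untreated and 1.90 and 2.04 in OGD cultures on the normalized log2 scale (log2 fold change −0.77, SE 0.0903). The upstream probe was at −4.58 and −4.62 against −4.23 and −3.88 (0.54, SE 0.148; −0.75 with spike-in scaling). The mean over both probes was −0.12 and was not called.

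In proteolytic processing, subunits of γ-secretase were found on both sides. *Psenen*, the subunit that activates the complex, was at 3.87 and 3.83 in untreated and 4.81 and 4.84 in OGD cultures on the normalized log2 scale (log2 fold change 0.97, SE 0.0765; −0.31 with spike-in scaling). *Ncstn*, which encodes nicastrin, was at −4.44 and −4.45 against −3.64 and −3.54 (0.85, SE 0.081; −0.44 with spike-in scaling). *Psen2*, an alternative catalytic subunit, was at 1.44 and 1.53 against 0.48 and 0.40 (−1.05, SE 0.0863). In each of these genes the replicates of a group lay closer together than the groups. *Aph1a*, the scaffold subunit, was at 1.68 and 1.53 against 1.32 and 0.97 (−0.46, SE 0.155) and was not called, and its upstream probe, at 0.32 (SE 0.112), was not called either. The ADAM proteases cut the receptor before γ-secretase does. *Adam10* was at 2.59 and 2.56 against 2.53 and 2.42 (−0.11, SE 0.0851) and was not called. *Adam17* was at −2.97 and −2.88 against −2.41 and −2.57 (0.43, SE 0.0988; −0.86 with spike-in scaling), while its other probe, which overlaps the first, gave −0.06 (SE 0.134).

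Among the regulators of trafficking and ubiquitination, *Numb* was higher and *Dtx1* and *Dtx4* lower by over 2-fold. NUMB takes part in the endocytosis of Notch and antagonizes it. It was at −3.49 and −3.41 in untreated and −1.97 and −1.67 in OGD cultures on the normalized log2 scale, a log2 fold change of 1.63 (SE 0.132, 3.1-fold) that was 0.34, and no longer called, with spike-in scaling. Its paralog *Numbl* was at 1.68 and 1.65 against 1.41 and 1.49 (−0.22, SE 0.08) and was not called.

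Deltex proteins are ubiquitin ligases that act on the receptor. *Dtx4* was at 2.96 and 2.95 in untreated and 0.90 and 0.85 in OGD cultures on the normalized log2 scale (log2 fold change −2.08, SE 0.0763, 4.23-fold lower). *Dtx1*, itself a transcriptional target of Notch in some cells, was at 2.48 and 2.50 against 0.90 and 1.05 (−1.51, SE 0.0923, 2.85-fold lower). *Dtx2* was at 1.77 and 1.83 against 1.69 and 1.77 (−0.07, SE 0.0822) and was not called. The Deltex family held 2 members that were lower by over 2-fold with narrow replicate spread, where 15.0% of all genes were. It also held 1 that was not called, and *Dtx3*. *Dtx3* was at −0.35 and −0.32 against 0.04 and 0.28 (0.49, SE 0.115; −0.79 with spike-in scaling). *Mib1*, the ubiquitin ligase that makes ligands competent to signal, was at −0.44 and −0.40 against 0.16 and 0.35 (0.68, SE 0.102; −0.61 with spike-in scaling).

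In the nuclear complex, the size of the change depended on the probe. RBPJ binds DNA and carries corepressors until the Notch intracellular domain displaces them. The brighter, downstream probe of *Rbpj* was at 1.19 and 1.20 in untreated and 1.68 and 1.82 in OGD cultures on the normalized log2 scale (log2 fold change 0.55, SE 0.0892; −0.74 with spike-in scaling). The upstream probe, 3726 bases away and printed above, was at −4.23 and −4.20 against −0.97 and −0.71 (3.37, SE 0.12, 10.4-fold), and stayed at 2.08 with spike-in scaling. The signal of each probe exceeded background on every array.

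The Mastermind proteins bridge the complex to histone acetyltransferases. *Maml1* was at 1.05 and 1.04 in untreated and 0.89 and 0.78 in OGD cultures on the normalized log2 scale (log2 fold change −0.21, SE 0.0844), and was not called. *Maml2* was at −1.61 and −1.59 against −2.01 and −1.77 (−0.29, SE 0.113), not called either, while its upstream probe was called higher at 0.96 (SE 0.136; −0.33 with spike-in scaling). *Maml3* was at −2.11 and −2.18 against −4.15 and −3.74 (−1.80, SE 0.166, 3.49-fold lower), and its log2 fold change was −0.89 with normexp background correction and −0.88, no longer called, as the mean over its probes. Its upstream probe, at 0.05 (SE 0.455), had overlapping groups.

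Of 7 genes listed as transcriptional targets, 5 were called lower and *Hey1* and *Hey2* higher, beside 27.8% and 37.1% of all genes. Whether each of them answers to Notch in these cultures was not tested. Among the 5 were *Nrarp* and *Heyl*, whose calls were lost when a probe had to be well above background on all 4 arrays. With the methods' t-test, the calls of *Hes1* and *Hes6* remained and the other 5 were lost. *Hes1*, a repressor that holds back neuronal differentiation and the best known Notch target, had processed signals of 609 and 537 in untreated and 31 and 30.9 in OGD cultures. On the normalized log2 scale it was at −1.81 and −2.01 against −4.84 and −4.65, a log2 fold change of −2.83 (SE 0.123, 7.13-fold lower) that was −1.49 with normexp background correction. *Hes5*, a repressor restricted to neural progenitors and glia, was at −1.06 and −1.15 against −2.98 and −2.23 (−1.50, SE 0.283, 2.83-fold lower). Its OGD replicates differed from each other by more than those of *Hes1*. *Hes6*, which opposes HES1, was at 1.59 and 1.66 against 0.68 and 0.62 (−0.98, SE 0.0807).

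*Nrarp*, a small ankyrin repeat protein that Notch induces and that limits Notch activity, was at −5.47 and −5.29 in untreated cultures on the normalized log2 scale. Neither OGD array, at −9.05 and −7.97, was well above background, so that *Nrarp* was at least 2.99-fold lower. *Heyl* was at −6.52 and −6.54 in untreated cultures and likewise not well above background after OGD (−7.40 and −8.52), at least 1.35-fold lower. The direction of these dim probes turned with normexp background correction, to log2 fold changes of 0.43 for *Nrarp* and 0.94 for *Heyl*.

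*Hey1* and *Hey2* are repressors related to the Hes proteins and respond to Notch in vessels and heart as well as in brain. *Hey1* was at 3.89 and 3.94 in untreated and 4.66 and 4.41 in OGD cultures on the normalized log2 scale, a log2 fold change of 0.62 (SE 0.118) that was −0.67 with spike-in scaling and −0.01 with quantile normalization. *Hey2* was at −3.72 and −3.82 against −2.84 and −3.21, a log2 fold change of 0.74 (SE 0.156) that was −0.55 with spike-in scaling. The groups did not overlap for either gene.

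**Figure D3:**
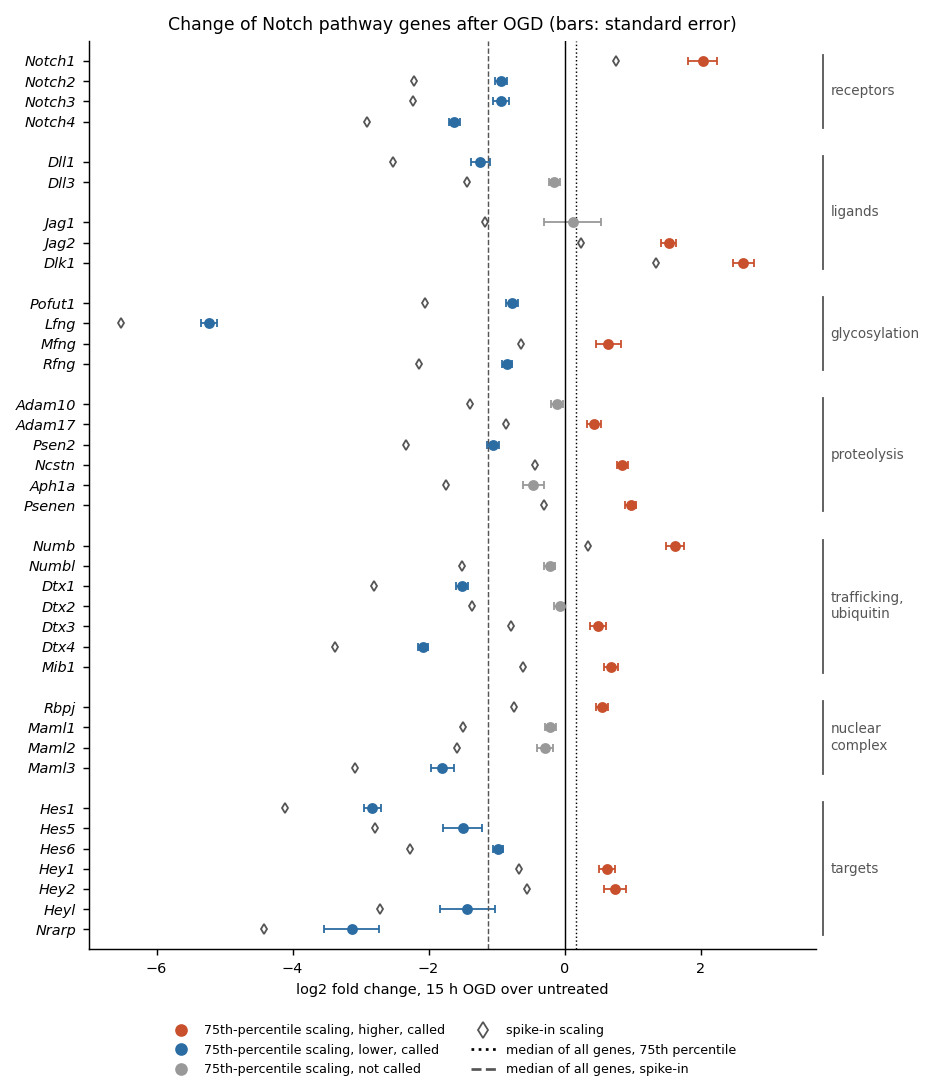
Log2 fold change (15 h OGD over untreated, points with standard error) of 37 Notch pathway genes by role, with the value under spike-in scaling as an open diamond, which lies to the left by the same distance for every gene. Among genes well above background on every array *Lfng* and *Hes1* are farthest to the left, the points of *Nrarp* and *Heyl* rest on OGD signals that were not well above background, and *Dlk1*, *Notch1*, *Numb* and *Jag2* alone stay to the right of 0 on both scales.

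NG2 glia, progenitors of the oligodendrocyte lineage, also use Notch signaling, and their markers are given beside *Dll1*, *Hes5* and *Hes1*. Of 6 NG2 glia markers, 4 fell and 1 rose, beside 27.8% and 37.1% of all genes (all 6 were negative with spike-in scaling). They included *Olig2* at −2.50 (SE 0.0862, limma adjusted p = 0.000729), *Pdgfra* at −1.27 (SE 0.224, limma adjusted p = 0.0114) and *Cspg4* at 0.88 (SE 0.0857, limma adjusted p = 0.00272) on the log2 scale. *Sox10*, at −0.76, was not well above background on 1 OGD array and turned to 0.83 with normexp background correction. The summed level of the NG2 glia markers was 21.7 and 21.6 in untreated and 14.9 and 13.5 in OGD cultures, mostly the signal of *Olig1* (log2 fold change −0.49), and 4 of the 6 were well above background on every array. That of 6 oligodendrocyte markers was 7.72 and 8 against 11.7 and 12.2, that of 6 neuron markers 6.93 and 6.4 against 7.56 and 7.36, and that of 6 microglia markers, 5 of which exceeded background on every array, 1.78 and 1.48 against 1.89 and 1.65. Among the neuron markers *Tubb3* (log2 fold change 0.28) and *Map2* (0.30) rose. *Rbfox3* (−1.12), not well above background after OGD, fell, and the median of the list was −0.01. The microglia sum is mostly *Itgam* (log2 fold change 0.02, not called), while *Csf1r* (1.14) and *Aif1* (1.03) rose and *Tmem119* (−0.88) fell. With spike-in scaling all 6 markers of each of these lists were negative. The part of NG2 glia in the members' values was not tested.

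Across the list, the upstream of 2 probes of a gene had the higher fitted log2 fold change. For 10 members, 2 probes at different positions both exceeded background on each of the 4 arrays, and the upstream probe had the higher log2 fold change in 10 of 10, by a median of 0.51. Over all 4685 genes with such a pair this held for 74.9%, by a median of 0.36. The probes of 3 members were more than 2-fold apart (*Rbpj* by 2.82, *Pofut1* by 1.32 and *Maml2* by 1.25 on the log2 scale), as were those of 28.1% of these genes. In *Notch1*, *Notch2* and *Maml3* the fitted value of the upstream probe was also the higher, but 1 of the probes was not well above background on every array, so the size of the difference is not given. Among the 10, the upstream probe was also the dimmer in *Dll3*, *Dlk1*, *Pofut1*, *Rfng*, *Aph1a*, *Rbpj* and *Maml2*. It was the brighter in *Mfng*, *Adam17* and *Psenen*. In the former genes, position and brightness of a probe cannot be told apart. The probes of *Adam17* overlap and still differed by 0.49. The comparison of positions was made after the values had been seen and carries no test. The distance between the probes ranged from 8 bases in *Adam17* to 416437 bases along the genome in *Maml3*.

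**Figure D4:**
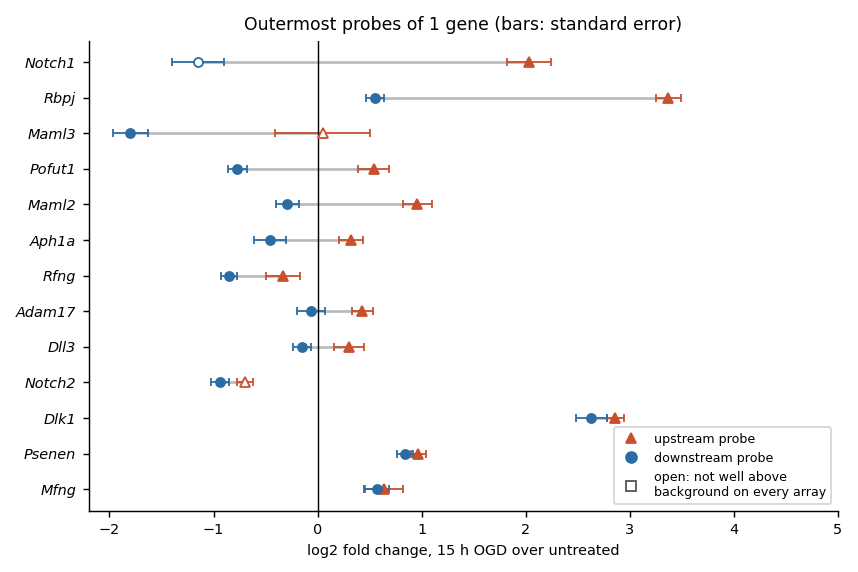
Log2 fold change (15 h OGD over untreated, with standard error) at the upstream probe (triangles) and the downstream probe (circles) of 13 Notch pathway genes, with open symbols where a probe was not well above background on every array. Every triangle lies to the right of its circle, and among pairs with filled symbols alone by 0.07 in *Mfng* to 2.82 in *Rbpj*.

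Other genes, of the pathway or only related or linked to it, which are not among the 38, were taken from 5 lists. Of 55 such genes, 49 were tested, and 17 rose and 14 fell, beside 37.1% and 27.8% of all genes. The other 18 did not pass the limma test. The median log2 fold change of the 49 was 0.12 beside 0.16 over all genes. On the spike-in scale 2 of the 49 had a positive log2 fold change. Without an untreated array, 9 or 10 genes were called higher and 5 lower.

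Among 15 other core genes, 6 rose and 3 fell, beside 37.1% and 27.8% of all genes. *Fbxw7*, the ubiquitin ligase subunit that marks the Notch intracellular domain for degradation, was at 0.16 and 0.13 in untreated and −1.52 and −1.48 in OGD cultures on the normalized log2 scale (log2 fold change −1.64, SE 0.0753, limma adjusted p = 0.000858). *Egfl7*, a secreted protein that binds Notch, was at −0.77 and −0.78 against 0.40 and 0.33 (1.14, SE 0.0787, limma adjusted p = 0.00147), and *Neurl1b*, a ubiquitin ligase for ligands, at 3.25 and 3.25 against 4.22 and 4.37 (1.05, SE 0.0914, limma adjusted p = 0.00219). With spike-in scaling the latter 2 were at −0.14 and −0.24. Of 21 coactivators and corepressors that work with RBPJ, 5 rose and 7 fell, beside the same shares, none of them by over 2-fold at its brightest probe. Other probes of *Cdk8* (2.39-fold lower, limma adjusted p = 0.00275) and *Tle4* (3.05-fold higher, limma adjusted p = 0.00179) passed that limit, and the one of *Tle4* went against its brightest probe (log2 fold change −0.44).

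Of 4 other Hes relatives tested, 3 rose and none fell, beside 37.1% and 27.8% of all genes. The smallest increase of these, that of *Hes7* (0.91), was −0.38 with spike-in scaling. *Bhlhe40*, a repressor of the same wider family that is induced by hypoxia in many cells, was at 0.26 and 0.17 in untreated and 2.76 and 2.89 in OGD cultures on the normalized log2 scale (log2 fold change 2.61, SE 0.0938, limma adjusted p = 0.000752, 6.11-fold). *Bhlhe41* was at −4.07 and −3.91 against −2.05 and −1.84 (2.04, SE 0.12, limma adjusted p = 0.00116, 4.12-fold). With spike-in scaling these probes were at 1.32 and 0.75, but the other probe of *Bhlhe41* was at 0.75 (SE 0.117, 1.69-fold) and turned to −0.53 with spike-in scaling.

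Of 6 glial genes linked to Notch, 3 rose and 2 fell, beside 37.1% and 27.8% of all genes. Among those that fell was *Sox9*, a transcription factor of glial fate that is also counted among the astrocyte markers, at 2.63 and 2.67 against 1.09 and 1.18 (−1.52, SE 0.0815, limma adjusted p = 0.00103, 2.87-fold lower).

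**Figure D5:**
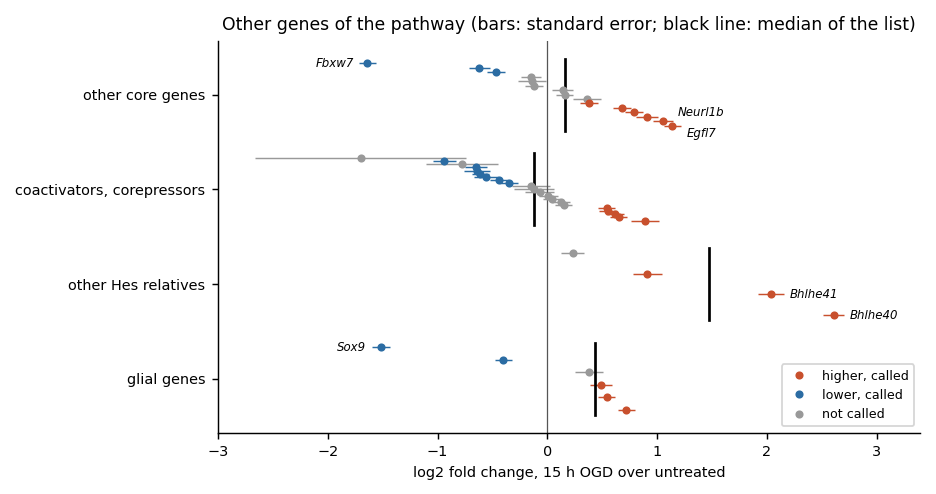
Log2 fold change (15 h OGD over untreated, with standard error) of 46 other genes in 4 lists, which hold genes of the Notch pathway and genes related or linked to it. The median of each list is a black line, and genes called with over 2-fold change are named. *Bhlhe40* and *Bhlhe41* lie farthest to the right, and *Fbxw7* and *Sox9* are the named genes on the left.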

How the data were processed

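The labels put 2 samples in each group, untreated AECs and AECs after 15 h of OGD. According to the methods, RNA was amplified, labeled with Cy3 and hybridized to a 1-color mouse gene expression array. The submitters' processing notes name Agilent Feature Extraction 11.5.1.1. The deposited intensity is the processed signal of each spot, from which the authors' scanner software had subtracted background, and it is not scaled between arrays. The deposited series table holds the same intensity (largest difference 0).

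For the present description, control and outlier spots were left out, log2 was taken, spots of a probe were averaged, and each array's 75th percentile over non-control probes was subtracted. A probe was kept if the scanner software marked it well above background in both replicates of either group (for repeated spots, on a fraction of at least 0.5 of them). The comparison used limma 3.58.1, functions lmFit and eBayes (R 4.3.3, 2 residual and 1.85 prior degrees of freedom) with Benjamini–Hochberg adjustment over 28258 probes, of which 95 lacked 1 array because of an outlier spot. A gene stood by its brightest probe. For a probe not well above background in a group, a fold is given as a bound, set against the dimmest probe well above background on the array. Spike-in scaling used the mean of 9 control probes. Python 3.11.15, pandas 2.3.3, numpy 2.4.6 and matplotlib 3.10.9 made tables and figures, and the steps were tested on simulated data.

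The 38 members, the other lists and the markers were chosen with earlier results of these data known. The genes named are all members, of each other list the called genes with over 2-fold change (at most 4), and markers needed beside a member. *Hes7*, *Cdk8* and *Tle4* were named in addition, after their values had been seen. Alternatives changed the test (the methods' t-test, a limma trend with robust prior, a block for the replicate number), the background (normexp, offset 50), the scaling (quantile, median, spike-in, or a percentile restricted to bright probes), the filter (none, stricter, outliers retained), the source (series table), the fold limit, the use of a mean of all probes for a gene, and the arrays, leaving out each in turn. Probe positions are on mm9, as the array's headers give them, and gene names are those of the array's design. RNA quality and the other experiments were not analysed here. The study's own lists of changed genes were not used, and of the 5 other lists 1 enters the total but is not reported here by itself.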

Additional observations from a re-analysis of the deposited data

How the results depend on the processing

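With 2 arrays a group and signals that were lower after OGD, dim probes carry the least certain values. The replicate number taken as a block gave 11 members higher and 17 lower, losing *Adam17* and *Mfng* and adding *Aph1a*. The numbers were not shown to pair the samples, since the deviations of same-numbered samples correlated at −0.06 over 2 pairs. Spike-in scaling, which moves every gene down alike, left 2 members higher and 33 lower (other genes: 2 and 45). It turned the log2 fold change of *Jag1* (−1.17), *Mfng* (−0.64), *Adam17* (−0.86), *Ncstn* (−0.44), *Psenen* (−0.31), *Dtx3* (−0.79), *Mib1* (−0.61), *Rbpj* (−0.74), *Hey1* (−0.67) and *Hey2* (−0.55). Normexp background correction turned *Dll1* (0.25), *Dll3* (0.53), *Heyl* (0.94) and *Nrarp* (0.43). Quantile normalization turned *Hey1* (−0.01), and leaving out OGD replicate 1 turned *Jag1* (−0.45, and 0.68 without OGD replicate 2). Turns are listed where a gene was called in the main or the alternative fit. Among genes called in neither, the mean over probes changed the sign of *Maml2* (0.33) and *Dll3* (0.08), and the percentile restricted to bright probes that of *Jag1* (−0.03). The cause of these turns, other than the shift that spike-in scaling makes by construction, was not tested. The methods' t-test with adjustment called 8 members higher and 13 lower.

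Above a 2-fold limit, by fitted values, 4 members were higher (other genes: 4 higher and 4 lower), and above a 10-fold limit 0 members were higher and 1 lower (other genes: 0 and 0). Leaving out each array in turn gave 6 to 13 members higher and 14 to 18 lower, with the low counts without either untreated array, and 9 to 18 other genes higher and 5 to 16 lower. Median scaling, the series table and outlier spots kept retained all 29 calls of members. The mean over a gene's probes lost *Notch1*, *Adam17*, *Pofut1* and *Maml3*.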
